A study of Arabidopsis thaliana with 6 samples.

Results

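Aquaporins are membrane channels for water and small uncharged solutes, and the 35 loci of this family in Arabidopsis thaliana were compared between sos2-2 and wild-type (WT) root tips on salt. The members were the 13 PIP, 10 TIP, 9 NIP and 3 SIP loci of the genome, taken by locus identifier. They were 35 of the 27655 genes measured, and all 35 had rows in the data, as 57 of the 48359 transcript isoforms. Isoform values were summed per locus. The sos2-2 group held 3 samples labelled as the mutant of SOS2, a protein kinase that activates sodium export from the cell, and the WT group held 3 samples labelled as wild type. In both groups the seedlings were 6 days old, had stood in liquid medium with 100 mM NaCl for 12 h, and gave total RNA from root tips by TRIzol. No group was left without salt, so a difference between genotypes that exists without salt cannot be told apart from one that salt brings out. The transcript of SOS2 (AT5G35410) itself stood at 22.0, 10.2 and 14.25 TPM in sos2-2, against 4.985, 5.81 and 5.44 TPM in WT, 2.86-fold higher in sos2-2 without overlap (limma, adjusted p = 0.00289). A mutant allele can leave its transcript in place, so this level does not check the genotype labels, from which the groups were taken. Not given in the sources used here are the lesion of the sos2-2 allele and whether either group carries the gl1 mutation that the design text names.

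The subfamilies differ in the membrane they sit in or in what they carry. Plasma membrane intrinsic proteins (PIPs) carry water into and out of the cell, and fall into the PIP1 and PIP2 clades, whose members form mixed tetramers. Tonoplast intrinsic proteins (TIPs) sit in the vacuole membrane, nodulin 26-like intrinsic proteins (NIPs) carry solutes such as boric acid, arsenite or lactic acid, and small basic intrinsic proteins (SIPs) sit in the endoplasmic reticulum. In roots PIPs and TIPs are among the abundant membrane proteins and carry much of the water that crosses cells, and salt is known to lower root hydraulic conductivity.

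Expression was measured by RNA sequencing and is given in TPM, a transcript level per length scaled so that each sample sums to 1000000, and levels can therefore be set side by side between genes. TPM keep no record of sequencing depth, which is unknown here, and no counting intervals can be given. Nothing in the labels states that replicates were grown or harvested separately, so the p-values may measure technical spread. Replicate 2 of sos2-2 was the mutant sample nearest to the WT mean in 15 of the 21 aquaporins called lower and in 3 of the 4 called higher, and replicate 1 of WT was the lowest WT sample in 15 of the 21. The most abundant transcript, AT2G01021, stood at 4386, 36620 and 1908 TPM in sos2-2, against 55550, 17910 and 14360 TPM in WT, and its share of the fixed total therefore varied from sample to sample. Root cap markers were present in all samples, with summed levels of 42.4 to 44.8 TPM in sos2-2, against 32.0 to 37.0 TPM in WT. Of 8 seed markers 0 reached a mean of 1 TPM and OLEO1 was listed at 0 in all 6 libraries.

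Sequences are shown for the members on which the results below turn, and come from the RefSeq genome and annotation of build TAIR10.1, read by locus. The first set holds the 250 bases before the annotated start of NIP5;1 and PIP1;3, both higher in sos2-2, and of TIP2;2 and TIP1;2, both lower. In the order of the lines below they lie at chr4:6435397-6435646, minus strand, chr1:227544-227793, minus strand, chr4:9698690-9698939, plus strand and chr3:9723905-9724154, minus strand. Capitals mark the motifs searched on both strands: the abscisic acid response element core ACGTG, the G-box CACGTG, which holds that core, the W-box core TTGAC, the longer W-boxes TTGACC and TTGACT, which hold the W-box core, and the dehydration response element core CCGAC.
NIP5;1: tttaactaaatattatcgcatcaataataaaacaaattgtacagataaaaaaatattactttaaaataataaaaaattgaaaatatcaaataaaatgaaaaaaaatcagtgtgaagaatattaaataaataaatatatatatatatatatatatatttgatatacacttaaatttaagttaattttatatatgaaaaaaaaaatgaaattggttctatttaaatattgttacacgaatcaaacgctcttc
PIP1;3: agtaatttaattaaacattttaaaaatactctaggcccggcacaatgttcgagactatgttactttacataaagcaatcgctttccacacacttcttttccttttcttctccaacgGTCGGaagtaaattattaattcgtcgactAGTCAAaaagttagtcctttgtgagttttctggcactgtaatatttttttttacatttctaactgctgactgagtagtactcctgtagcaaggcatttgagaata
TIP2;2: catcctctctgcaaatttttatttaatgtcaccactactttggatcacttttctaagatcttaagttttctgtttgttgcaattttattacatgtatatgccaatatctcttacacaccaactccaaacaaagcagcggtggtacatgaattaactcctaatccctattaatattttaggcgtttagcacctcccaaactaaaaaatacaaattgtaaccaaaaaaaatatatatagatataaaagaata
TIP1;2: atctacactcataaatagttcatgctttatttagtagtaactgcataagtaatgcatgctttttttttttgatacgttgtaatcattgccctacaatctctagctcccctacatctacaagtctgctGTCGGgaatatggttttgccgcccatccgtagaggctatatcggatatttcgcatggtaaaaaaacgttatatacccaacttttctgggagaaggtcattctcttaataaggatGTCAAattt
The first and the third window, of the members with the largest rise and the largest fall in log2 fold change, held none of these letters. The second, of a gene that rose, and the fourth, of a gene that fell, each held a W-box core and a dehydration response element core. Among all 35 aquaporins the W-box core was in 19 windows (54.3%), against 44.9% of 27443 protein-coding genes, the longer W-boxes were in 14 (40.0%), against 28.4%, the dehydration core was in 4 (11.4%), against 12.0%, and the abscisic acid core was in 4 (11.4%), against 22.9%. The G-box was in 0 aquaporin windows, against 6.49% of all genes. Among the 21 aquaporins called lower, the longer W-boxes were in 4 (19.0%) and the W-box core in 8 (38.1%). Among the 4 called higher, each was in 2. Of all tested genes, 28.9% held the longer W-boxes and 45.8% the core. A match is a description of these letters and not evidence of a bound site.

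A second set shows the 5′ leader of NIP5;1, the boric acid channel of root cells. In Arabidopsis its leader is known to hold the letters AUGUAA, a start codon joined to a stop codon, at which ribosomes stall when boron is ample and the mRNA is cut. The annotated leader was 886 bases long and held ATGTAA, in capitals, at the 30-base sites chr4:6434805-6434834 and chr4:6434615-6434644 (minus strand), 312 and 122 bases before the main start codon.
Upstream site: atctttcaaagcATGTAAatttaagtccta
Downstream site: aaatttcaaatcATGTAAatttcgtctcta
The letters ATGTAA occurred in 4.42% of 22797 annotated leaders and in those of 2 of the 35 aquaporins, NIP5;1 and PIP2;5. These 2 leaders were 886 and 358 bases long. The share over all leaders takes no account of length, and a longer leader is likelier to hold a given word.

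Across the family the mutant held less aquaporin transcript. The summed level of the 35 loci was 4602, 6763 and 6020 TPM in sos2-2, against 8535, 11830 and 10110 TPM in WT. The family made up 0.46, 0.676 and 0.602% of all transcripts in sos2-2, against 0.854, 1.18 and 1.01% in WT, and the groups did not overlap. Of 29 members that reached a mean of 1 TPM over the 6 samples and were tested, 25 (86.2%) were called at an adjusted p under 0.05 by limma, against 65.4% of the 19527 genes tested. The members called higher in sos2-2 numbered 4, against 31.3% of all tested genes, and those called lower numbered 21 (72.4%), against 34.1%. The median log2 fold change, sos2-2 minus WT, was -0.92 over the 29 members and -0.05 over all tested genes. A fall of at least 1 on the log2 scale was called for 13 members, against 16.8% of all tested genes, and a rise of that size for 2, against 16.3%. The samples of the genotypes did not overlap for 26 members, against 72.1% of all tested genes. These are bulk samples, in which fewer cells of a type and less RNA per cell cannot be told apart.

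**Figure D1:**
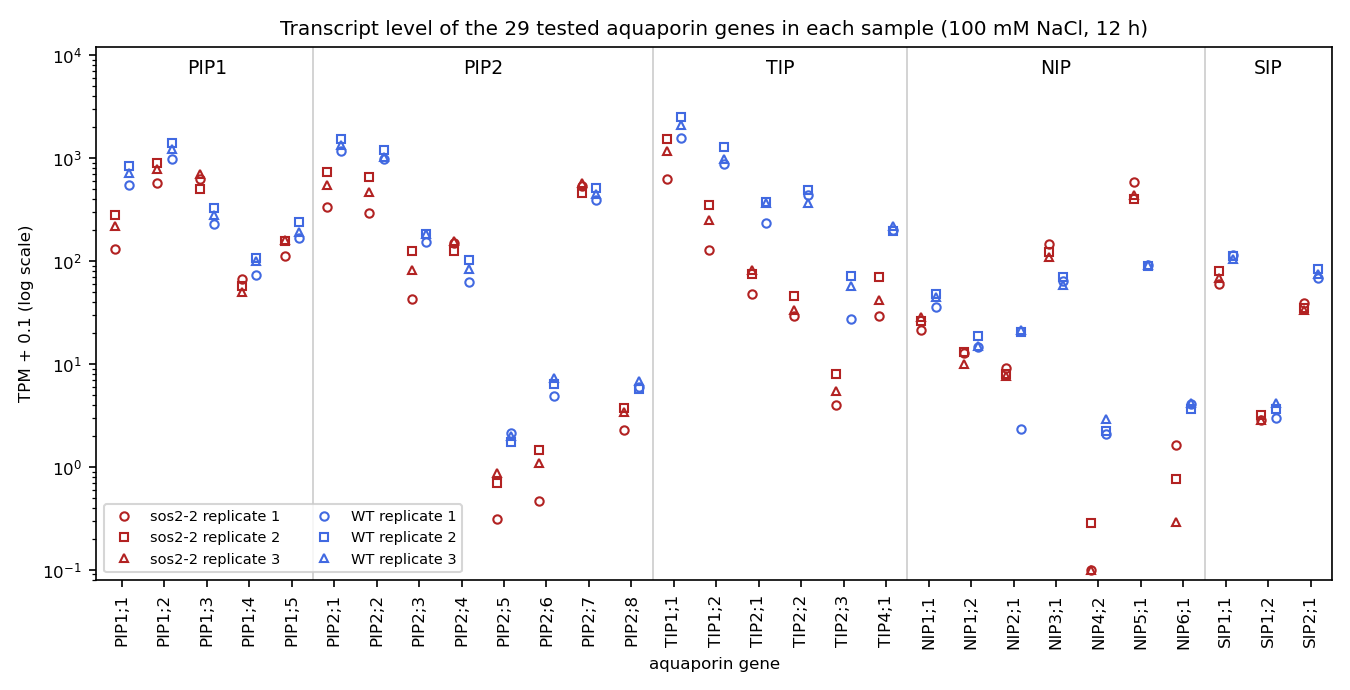
Level of each tested aquaporin gene in each sample, as TPM + 0.1 on a log axis, with sos2-2 in red left of WT in blue and a symbol per replicate. The red points of the 6 TIP genes lie below the blue ones, and those of NIP5;1, PIP1;3, NIP3;1 and PIP2;4 lie above.

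The clades stood at different ratios between the genotypes. The summed TIP level was 863, 2075 and 1583 TPM in sos2-2, against 3364, 4934 and 4076 TPM in WT, a ratio of sos2-2 to WT of 0.365. The summed PIP2 level was 1356, 2119 and 1829 TPM in sos2-2, against 2765, 3525 and 3091 TPM in WT, a ratio of 0.565. For PIP1 the sum was 1506, 1884 and 1916 TPM in sos2-2, against 2008, 2917 and 2517 TPM in WT, a ratio of 0.713. In each of these clades every mutant sample lay below every WT sample, by a narrow margin for PIP1. The summed NIP level was 775, 568 and 589 TPM in sos2-2, against 215, 250.2 and 239 TPM in WT, with every mutant sample above every WT sample, a ratio of 2.74. Without NIP5;1 the other 8 NIP loci summed to 189, 169.6 and 156 TPM in sos2-2, against 123, 162 and 147 TPM in WT, and the samples overlapped. The summed SIP level was 101, 117 and 104 TPM in sos2-2, against 184, 199.9 and 184 TPM in WT, a ratio of 0.566, with no overlap. Of the 5 clade sums, that of the NIPs was the one higher in sos2-2. As a share of all aquaporin transcript, TIPs made up 18.8, 30.7 and 26.3% in sos2-2, against 39.4, 41.7 and 40.3% in WT. TIP1;1 by itself made up 13.6, 22.6 and 19.5% in sos2-2, against 18.5, 21.3 and 20.7% in WT, and its share overlapped between genotypes. NIPs made up 16.8, 8.39 and 9.78% in sos2-2, against 2.52, 2.12 and 2.36% in WT. PIP1s made up 32.7, 27.9 and 31.8% in sos2-2, against 23.5, 24.7 and 24.9% in WT. The shares of TIPs, NIPs and PIP1s did not overlap between genotypes, while the shares of PIP2 (30.4 ± 0.93% in sos2-2 and 30.9 ± 1.33% in WT, SD, n = 3 each) and SIP (1.88 ± 0.275% in sos2-2 and 1.89 ± 0.242% in WT) did. The PIP1 sum and share include PIP1;3, at a mean of 612 TPM in sos2-2 and 276 TPM in WT. It was the 1 PIP1 locus higher in sos2-2, while the other 4 were lower without overlap. The PIP1 share was not recomputed without PIP1;3, so its rise cannot be read as a rise of the other members. The clade sums are descriptions and were not tested.

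**Figure D2:**
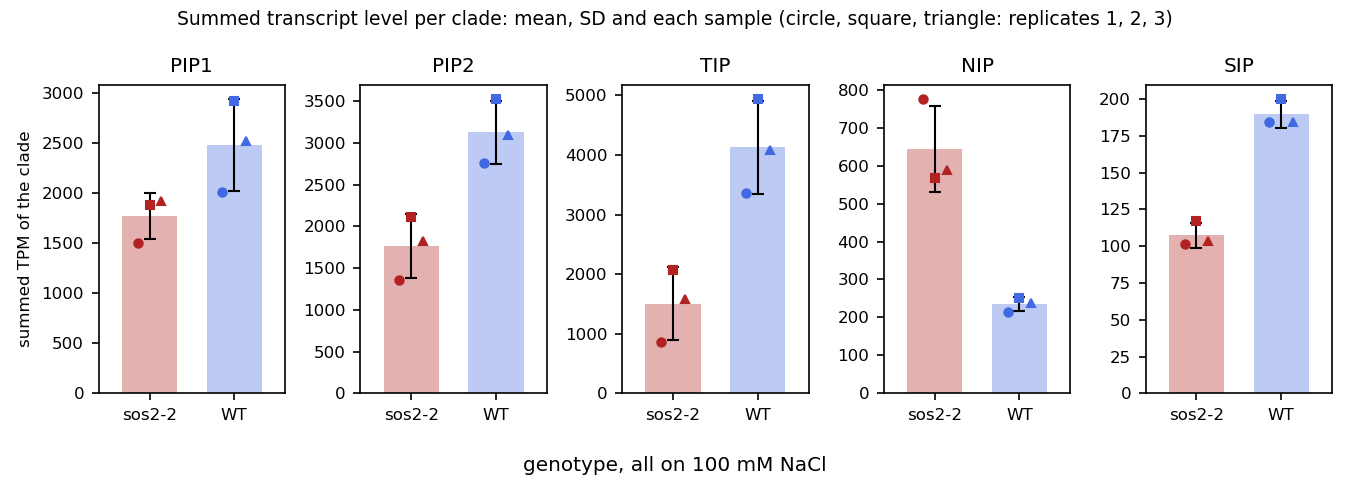
Summed TPM of each clade in sos2-2 (red, left) and WT (blue, right) as bars of the mean with SD over 3 samples and a symbol per replicate, each panel with its own axis from 0. The NIP panel is the one in which the mutant bar is the taller, at 644 ± 114 TPM in sos2-2 and 235 ± 18.1 TPM in WT.

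TIPs of the vacuole membrane held the deepest falls on the log2(TPM + 1) scale, on which the change of low genes such as NIP4;2 is understated. The 6 tested loci of 10 were all called lower, against 34.1% of all tested genes, with a median log2 fold change of -2.23. TIP2;2 (AT4G17340, chr4:9698940-9700472, plus strand, 2 exons), a channel of the root vacuole, stood at 28.9, 45.2 and 32.95 TPM in sos2-2, against 438.5, 485 and 369.9 TPM in WT. The mutant level was 12.1-fold lower and the samples were far apart (log2 fold change -3.57, SE 0.19, adjusted p = 1.12e-05), and in the order of family members by mean level TIP2;2 was 19th in sos2-2 and 8th in WT. TIP2;3 (AT5G47450, chr5:19248249-19249622, minus strand) stood at 3.88, 7.94 and 5.31 TPM in sos2-2, against 27.0, 71.6 and 56.8 TPM in WT. It fell 9.07-fold, with WT replicate 1 well below the other WT samples but above all mutant samples (log2 fold change -2.91, SE 0.37, adjusted p = 0.000421). TIP2;1 (AT3G16240, chr3:5505360-5507050, plus strand), also named delta-TIP, stood at 48.05, 75.4 and 80.8 TPM in sos2-2, against 234, 377 and 367 TPM in WT, and fell 4.785-fold (log2 fold change -2.24, SE 0.26, adjusted p = 0.00024). Members of the TIP2 group carry ammonia as well as water, and their summed level was 80.85, 129 and 119 TPM in sos2-2, against 699, 934 and 793 TPM in WT, a ratio of 0.135.

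Of the TIP1 genes, TIP1;1 and TIP1;2 are the highly expressed vacuole channels of growing tissue. TIP1;1 (AT2G36830), or gamma-TIP, was the most abundant aquaporin in both genotypes, at 624, 1529 and 1174 TPM in sos2-2, against 1578, 2524 and 2089 TPM in WT. The highest mutant sample, replicate 2, came close to the lowest WT sample, replicate 1 (log2 fold change -0.96, SE 0.33, adjusted p = 0.0352). This adjusted p was the highest of the clade, and the call was lost without sos2-2 replicate 3 (adjusted p = 0.0638), without WT replicate 2 (0.117) or 3 (0.0887), and with no filter on low genes (0.0539). TIP1;2 (AT3G26520) stood at 126.5, 348 and 247 TPM in sos2-2, against 884, 1278 and 975 TPM in WT, a 4.35-fold fall with no overlap (log2 fold change -2.22, SE 0.35, adjusted p = 0.00113). TIP4;1 (AT2G25810), a root TIP, stood at 28.9, 70.0 and 41.7 TPM in sos2-2, against 202, 197 and 217 TPM in WT, a 4.38-fold fall (log2 fold change -2.20, SE 0.29, adjusted p = 0.000456). Its WT samples lay within a narrow band, while the mutant samples differed more among themselves. The 4 other TIPs were under the filter. TIP3;1 and TIP3;2 are the TIPs of seed storage vacuoles, and TIP1;3 and TIP5;1 those of pollen. TIP1;3 (AT4G01470) was listed at 0.156, 0 and 0.0704 TPM in sos2-2, against 0.481, 0.488 and 0.325 TPM in WT. TIP5;1 (AT3G47440) was listed at 0.350, 0.335 and 0.2365 TPM in sos2-2, against 0, 0 and 0.0455 TPM in WT. The samples of these pollen TIPs did not overlap, lower in sos2-2 for the first and higher for the second. TIP3;1 (AT1G73190) was listed at 1.66, 0 and 0.195 TPM in sos2-2, against 0, 0 and 0.0374 TPM in WT. TIP3;2 (AT1G17810) was listed at 0.290, 0 and 0 TPM in sos2-2, against 0, 0.123 and 0.0753 TPM in WT. The seed TIPs overlapped between genotypes. When the filter was dropped, TIP1;3 was called lower (log2 fold change -0.41, adjusted p = 0.00823) and TIP5;1 higher (log2 fold change 0.36, adjusted p = 0.00453), both at means under 1 TPM in each genotype, and the seed TIPs were not called.

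Markers of cell types were counted beside all tested genes, of which 31.3% were called higher and 34.1% lower. The lists hold few genes, and a share near these is no result about a list, as for the root cap. Of 9 endodermis markers 7 were called lower, 1 higher and 1 not called, and their summed level was 177 to 474 TPM in sos2-2, against 903 to 1128 TPM in WT. CASP2, a protein of the Casparian strip, stood at 2.52, 24.4 and 6.42 TPM in sos2-2, against 108, 149.8 and 134 TPM in WT, with replicate 2 of the mutant again nearest to WT. MYB36, the factor that starts Casparian strip formation, stood at 95.2, 130.0 and 159 TPM in sos2-2, against 49.3, 59.1 and 59.7 TPM in WT. Of 10 root hair markers 7 were lower, 1 higher and 2 not called, with a sum of 605 to 745 TPM in sos2-2, against 2511 to 3157 TPM in WT, led by the hair cell wall protein genes PRP3 (log2 fold change -3.06, adjusted p = 8.49e-06) and PRP1 (log2 fold change -3.18, adjusted p = 8.83e-06). All 5 markers of dividing cells were lower, with a sum of 23.3 to 34.1 TPM in sos2-2, against 136 to 188 TPM in WT, among them PCNA1 (log2 fold change -2.40, adjusted p = 2.63e-05) and KNOLLE (log2 fold change -3.19, adjusted p = 2.73e-05). Of 9 xylem markers 6 were lower and 2 higher (sum 156 to 192 TPM in sos2-2, against 203 to 246 TPM in WT), ACL5 lower (log2 fold change -1.54, adjusted p = 0.00014) and VND6 higher (log2 fold change 1.84, adjusted p = 0.00014). Phloem markers were 3 of 5 higher and 0 lower (sum 82.7 to 95.6 TPM in sos2-2, against 22.15 to 39.0 TPM in WT), with APL (log2 fold change 1.58, adjusted p = 4.66e-05) and BRX (log2 fold change 3.40, adjusted p = 0.000117). Root cap markers were 2 of 4 higher and 1 lower, with BRN2 (log2 fold change 0.69, adjusted p = 0.000856) and SMB (log2 fold change 0.79, adjusted p = 0.001). FEZ was the root cap marker called lower (log2 fold change -1.37), and BRN1 was not called (log2 fold change -0.31). Leaf markers were 5 of 6 lower and 0 higher (sum 71.8 to 90.9 TPM in sos2-2, against 113 to 142 TPM in WT), with PSBO2 (log2 fold change -2.01, adjusted p = 0.000431) and LHCB3 (log2 fold change -0.80, adjusted p = 0.00253), and of 7 pollen markers 2 were tested and 0 called, the nearer being ANX1 (adjusted p = 0.0547). The part of these differences in the aquaporin results was not tested.

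**Figure D3:**
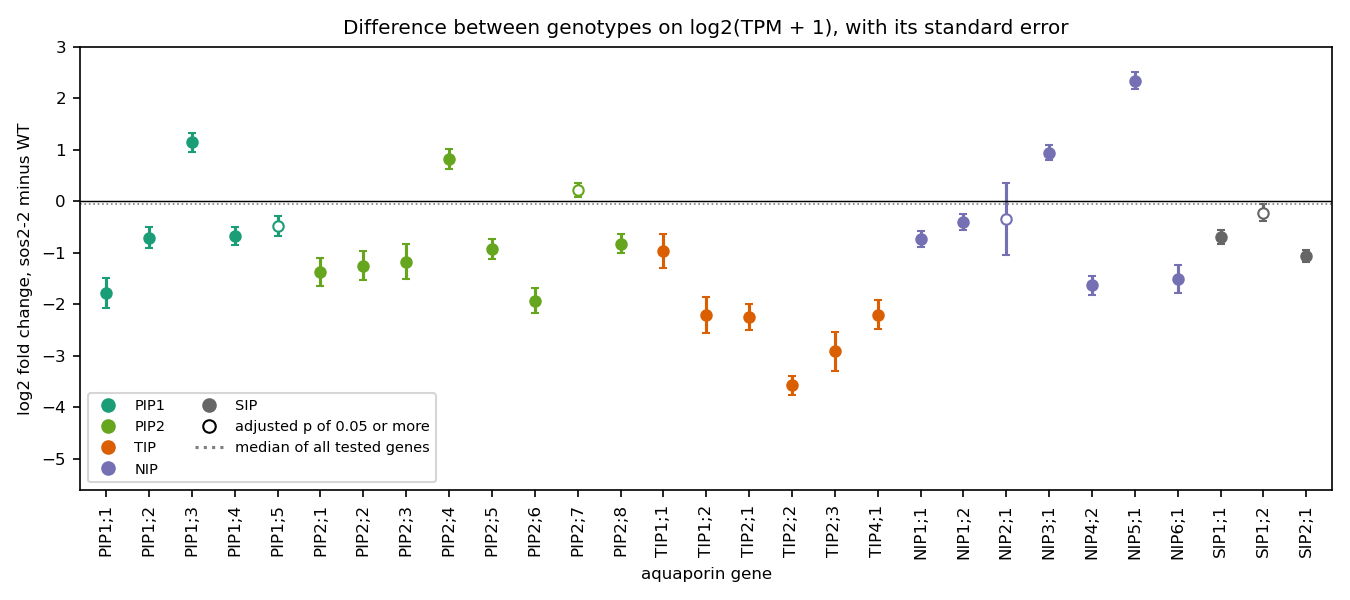
Log2 fold change of each tested aquaporin, sos2-2 minus WT on log2(TPM + 1), with its standard error and colours by clade. All TIP points lie below 0, from -3.57 to -0.96, and 4 filled points lie above 0, the highest being NIP5;1 at 2.35. Open points are the 4 members that were not called.

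PIP2 proteins are the main water channels of the plasma membrane. Of 8 PIP2 loci 6 were called lower, 1 higher and 1 not called, with a median log2 fold change of -1.04. PIP2;1 (AT3G53420), a major water channel of roots, stood at 334, 740.2 and 548 TPM in sos2-2, against 1168, 1516 and 1343 TPM in WT (log2 fold change -1.38, SE 0.28, adjusted p = 0.00353), and PIP2;2 (AT2G37170), its close companion in roots, at 289.6, 661 and 467 TPM in sos2-2, against 979, 1200 and 1021 TPM in WT (log2 fold change -1.25, SE 0.28, adjusted p = 0.00589). PIP2;3 (AT2G37180), also known as the desiccation-responsive gene RD28, stood at 42.8, 124 and 81.3 TPM in sos2-2, against 152, 181 and 182 TPM in WT (log2 fold change -1.17, SE 0.35, adjusted p = 0.0194). For all 3 genes the lowest sample was sos2-2 replicate 1 and the mutant sample nearest to WT was replicate 2, and the genotypes did not overlap. The call of the third gene was lost without WT replicate 2 (adjusted p = 0.0617) or 3 (0.0585).

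The loci of PIP2;2 and PIP2;3 lie 2612 bp apart on opposite strands and are near-copies, so a quantification of short reads can divide their reads unevenly. Their coding sequences of 858 bases were identical at 813 positions (94.8%). The first 120 coding bases of each are shown. They hold 12 of the 45 differences, and so differ more than the coding sequences as a whole. In the order of the lines below they lie at chr2:15614672-15614791, minus strand, and chr2:15617779-15617898, plus strand, and capitals mark the 12 bases that differ.
PIP2;2: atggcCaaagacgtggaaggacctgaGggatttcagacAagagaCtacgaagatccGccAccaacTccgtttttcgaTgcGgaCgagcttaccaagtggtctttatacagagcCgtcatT
PIP2;3: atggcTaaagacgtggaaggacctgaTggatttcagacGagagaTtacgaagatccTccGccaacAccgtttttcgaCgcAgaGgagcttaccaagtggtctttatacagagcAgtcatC
Of all 31-base words of their annotated transcripts, 24.4% for the first gene and 26.8% for the second occurred also at another locus. Their summed level, which depends little on how reads were divided between them, was 332, 785 and 549 TPM in sos2-2, against 1130, 1381 and 1203 TPM in WT, a ratio of 0.448.

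PIP2;4 (AT5G60660, chr5:24375368-24377206, minus strand), a gene expressed mainly in roots, was the PIP2 that rose. It stood at 149, 126 and 156 TPM in sos2-2, against 61.8, 103 and 82.9 TPM in WT, 1.74-fold higher, and every mutant sample lay above every WT sample (log2 fold change 0.82, SE 0.19, adjusted p = 0.00727). PIP2;7 (AT4G35100), whose protein is bound and sent for degradation by the stress protein TSPO, stood at 538, 462 and 571 TPM in sos2-2, against 392, 511 and 446.5 TPM in WT. The samples overlapped and the gene was not called (log2 fold change 0.22, SE 0.14, adjusted p = 0.202). In 2 of 15 other settings of the limma fit it was called, with quantile normalization (adjusted p = 0.0415) and with sample weights (3.9e-05). The estimation of those weights stopped short of its convergence tolerance. The other 3 PIP2 genes were low in all samples. PIP2;6 (AT2G39010) stood at 0.362, 1.35 and 0.981 TPM in sos2-2, against 4.78, 6.32 and 7.225 TPM in WT (log2 fold change -1.92, SE 0.25, adjusted p = 0.000372). PIP2;8 (AT2G16850) stood at 2.19, 3.62 and 3.31 TPM in sos2-2, against 5.82, 5.66 and 6.69 TPM in WT (log2 fold change -0.82, SE 0.18, adjusted p = 0.00547), and PIP2;5 (AT3G54820) stood at 0.210, 0.603 and 0.771 TPM in sos2-2, against 2.04, 1.65 and 1.89 TPM in WT (log2 fold change -0.92, SE 0.20, adjusted p = 0.00477). All 3 fell without overlap, and for levels this close to 1 TPM the log2(TPM + 1) scale understates the change. In mean TPM the fall of the first of them was 6.79-fold.

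PIP1 proteins reach the plasma membrane largely in company with PIP2 proteins. Of the 5 PIP1 loci 3 were called lower, 1 higher and 1 not called, with a median log2 fold change of -0.67. Those called lower were 60.0%, against 34.1% of all tested genes. PIP1;1 (AT3G61430) stood at 130.4, 281.5 and 221 TPM in sos2-2, against 553, 845 and 716.5 TPM in WT, the deepest fall of the clade at 3.34-fold (log2 fold change -1.78, SE 0.29, adjusted p = 0.00131). PIP1;2 (AT2G45960), an abundant root channel linked to water and carbon dioxide transport, stood at 569.5, 886.5 and 782 TPM in sos2-2, against 989, 1403 and 1232 TPM in WT (log2 fold change -0.70, SE 0.20, adjusted p = 0.0158). Its highest mutant sample was close to its lowest WT sample, and the call was lost without WT replicate 2 (adjusted p = 0.0614) or 3 (0.0533). PIP1;4 (AT4G00430), a channel for hydrogen peroxide as well as water, stood at 66.4, 57.5 and 49.4 TPM in sos2-2, against 72.8, 107 and 101 TPM in WT (log2 fold change -0.67, SE 0.18, adjusted p = 0.0123). Its samples did not overlap, and its call was lost without sos2-2 replicate 3 (adjusted p = 0.0508) or WT replicate 3 (0.0511). PIP1;5 (AT4G23400) stood at 112, 157.5 and 159 TPM in sos2-2, against 166, 238 and 192 TPM in WT. Its samples did not overlap, but it was not called (log2 fold change -0.48, SE 0.19, adjusted p = 0.0581). It was called in 5 of 15 other settings, at adjusted p of 0.000643 to 0.0483.

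PIP1;3 (AT1G01620, chr1:225665-227543, minus strand), a plasma membrane channel, was the PIP1 that rose. It stood at 628, 501.5 and 705 TPM in sos2-2, against 226, 324 and 277 TPM in WT, 2.22-fold higher without overlap (log2 fold change 1.15, SE 0.18, adjusted p = 0.000992), and was the third most abundant aquaporin in sos2-2 and the 10th in WT. Of its 31-base words 0.323% occurred also at another locus.

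NIPs held both the strongest rise in the family by log2 fold change and several falls. Of 7 tested NIP loci 2 were called higher, 4 lower (57.1%) and 1 not called, with a median log2 fold change of -0.41. Among all tested genes 31.3% were called higher and 34.1% lower, so the count of NIPs called higher lies near the background. NIP5;1 (AT4G10380, chr4:6431161-6435396, minus strand, 4 exons) stood at 585, 398 and 433 TPM in sos2-2, against 91.5, 88.3 and 92.2 TPM in WT. Its rise was 5.21-fold (log2 fold change 2.35, SE 0.16, adjusted p = 2.67e-05), the lowest mutant sample being replicate 2 and the 3 WT samples differing little. It made up 12.7, 5.89 and 7.2% of all aquaporin transcript in sos2-2, against 1.07, 0.747 and 0.913% in WT, and ranked 7th in sos2-2 and 16th in WT. None of its 31-base words occurred at another locus. No label names a boron treatment, and whether the ATGTAA sites shown above bear on the level was not tested.

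Of the genes known to act in boron transport, 3 borate exporters and a related channel are described here, the exporters having been chosen after their values were seen. BOR1, the exporter that loads boric acid into the xylem, stood at 19.5, 29.0 and 21.8 TPM in sos2-2, against 45.1, 63.35 and 61.8 TPM in WT (log2 fold change -1.24, adjusted p = 0.00089). BOR2, a borate exporter of root cells, stood at 47.9, 30.8 and 26.8 TPM in sos2-2, against 76.8, 54.1 and 68.35 TPM in WT (log2 fold change -0.93, adjusted p = 0.00926), and BOR4, an exporter that confers tolerance to excess boron, at 2.38, 4.70 and 2.205 TPM in sos2-2, against 5.25, 10.7 and 7.47 TPM in WT (log2 fold change -1.11, adjusted p = 0.0137). All 3 exporters were called lower, as were 34.1% of all tested genes. NIP6;1 (AT1G80760), a related boric acid channel of shoot nodes, stood at 1.53, 0.668 and 0.189 TPM in sos2-2, against 4.02, 3.52 and 4.06 TPM in WT and fell as well (log2 fold change -1.50, SE 0.28, adjusted p = 0.0021).

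NIP3;1 (AT1G31885, chr1:11450315-11452068, plus strand), a channel that admits arsenite in roots, was the second NIP to rise. It stood at 145, 121.5 and 109 TPM in sos2-2, against 64.4, 69.6 and 58.4 TPM in WT, 1.95-fold higher without overlap (log2 fold change 0.95, SE 0.14, adjusted p = 0.000749). It begins 82 bp after the end of BRX, a phloem regulator on the same strand, which stood at 49.0, 18.8 and 23.3 TPM in sos2-2, against 1.94, 1.53 and 1.74 TPM in WT. Both neighbours rose, and in both sos2-2 replicate 1 was the highest sample. Whether reads that run past the end of BRX were counted for its neighbour was not tested. Of the 31-base words of the aquaporin, 18.9% occurred also in the transcribed pseudogene AT2G21020, not analysed here.

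Of the NIPs that fell, NIP1;1 (AT4G19030), which admits arsenite and antimonite, stood at 21.4, 26.1 and 28.5 TPM in sos2-2, against 35.95, 47.3 and 44.95 TPM in WT (log2 fold change -0.73, SE 0.15, adjusted p = 0.00421). NIP1;2 (AT4G18910), linked to aluminium uptake, stood at 12.7, 13.0 and 9.92 TPM in sos2-2, against 14.6, 18.6 and 14.9 TPM in WT (log2 fold change -0.41, SE 0.15, adjusted p = 0.0484). The samples of both did not overlap, but the second fall was small and its call was lost in 6 of 15 other settings, with adjusted p up to 0.154. NIP4;2 (AT5G37820), a pollen channel, was listed at 0, 0.186 and 0 TPM in sos2-2, against 1.96, 2.11 and 2.79 TPM in WT (log2 fold change -1.63, SE 0.19, adjusted p = 0.000224). With a pseudocount of 0.1 in place of 1 its log2 fold change was -4.06, below the -3.61 of TIP2;2. With 2 mutant libraries listed at 0, no fold is given for it. Its neighbour NIP4;1 (AT5G37810), 1989 bp away, was listed at 0 in all 6 libraries, and NIP7;1 (AT3G06100), the boric acid channel of anthers, stood at 0.116, 0.2445 and 0.1002 TPM in sos2-2, against 0.179, 0.2485 and 0.232 TPM in WT, under the filter.

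NIP2;1 (AT2G34390), a lactic acid channel known to be induced by low oxygen, differed among the WT samples more than between genotypes. It stood at 9.07, 7.88 and 7.56 TPM in sos2-2, against 2.22, 20.5 and 21.3 TPM in WT, so that WT replicate 1 lay below all mutant samples and the other WT samples above them (log2 fold change -0.34, SE 0.69, adjusted p = 0.687). Without WT replicate 1 the log2 fold change was -1.26 and the adjusted p = 0.000698, while without WT replicate 3 the log2 fold change was 0.14 (adjusted p = 0.882). A pair of low-oxygen enzyme genes, chosen after their values were seen, showed the same sample apart. ADH1, alcohol dehydrogenase, stood at 5.79, 9.01 and 5.44 TPM in sos2-2, against 7.89, 106 and 73.3 TPM in WT, and PDC1, pyruvate decarboxylase, stood at 33.6, 21.0 and 24.3 TPM in sos2-2, against 9.70, 80.8 and 73.1 TPM in WT. ADH1 was called lower (adjusted p = 0.0361) although its samples overlapped, and PDC1 was not called (adjusted p = 0.504). PGB1, chosen in the same way, stood at 139.8, 54.8 and 75.3 TPM in sos2-2, against 31.1, 103.5 and 86.5 TPM in WT. Its WT replicate 1 was low as well, but its sos2-2 samples spread widely, with replicate 1 above all WT samples (not called, adjusted p = 0.564). TSPO, whose protein binds PIP2;7, stood at 0.498, 3.02 and 0.225 TPM in sos2-2, against 1.21, 27.9 and 18.9 TPM in WT and was not called (adjusted p = 0.052). Of the 31-base words of the aquaporin, 65.6% occurred also at another locus, chiefly in AT2G08660, a non-coding RNA on the opposite strand that was not analysed here. With the strand setting not given in the sources used here, reads of the 2 strands cannot be told apart. More than 5% of the words were shared in 11 of the 35 members. Among them, TIP2;1 (7.77%), SIP2;1 (9.11%), TIP5;1 (6.29%), TIP3;1 (22.6%) and TIP3;2 (43.1%) also shared words chiefly with a locus on the opposite strand. The same limit holds for these members.

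**Figure D4:**
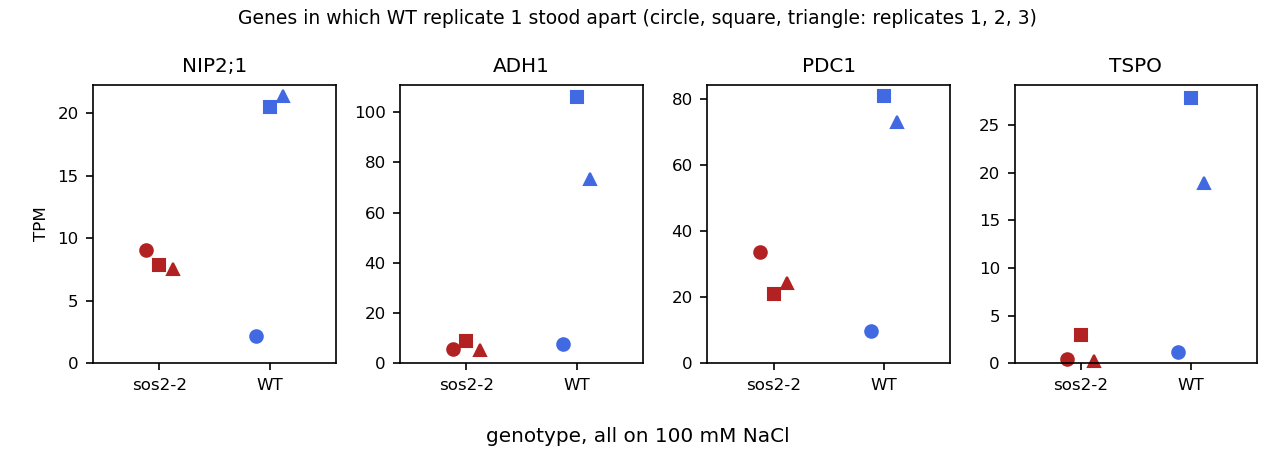
TPM of NIP2;1, ADH1, PDC1 and TSPO in each sample, sos2-2 (red) left of WT (blue), with a symbol per replicate and each axis from 0. In each panel WT replicate 1 (circle) lies far below the other WT samples, at 2.22 against 20.5 and 21.3 TPM for NIP2;1.

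Of the 3 SIPs of the endoplasmic reticulum 2 were called lower, against 34.1% of all tested genes. SIP2;1 (AT3G56950) stood at 39.2, 34.9 and 33.5 TPM in sos2-2, against 68.5, 83.6 and 75.2 TPM in WT (log2 fold change -1.06, SE 0.12, adjusted p = 0.00024) and SIP1;1 (AT3G04090), a water channel, at 59.4, 79.0 and 67.5 TPM in sos2-2, against 113, 113 and 105 TPM in WT (log2 fold change -0.69, SE 0.13, adjusted p = 0.00272). Both fell without overlap, and the spread between samples was small in both groups. SIP1;2 (AT5G18290) stood at 2.73, 3.07 and 2.725 TPM in sos2-2, against 2.89, 3.54 and 4.04 TPM in WT, overlapped between genotypes and was not called (log2 fold change -0.22, SE 0.16, adjusted p = 0.258).

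**Figure D5:**
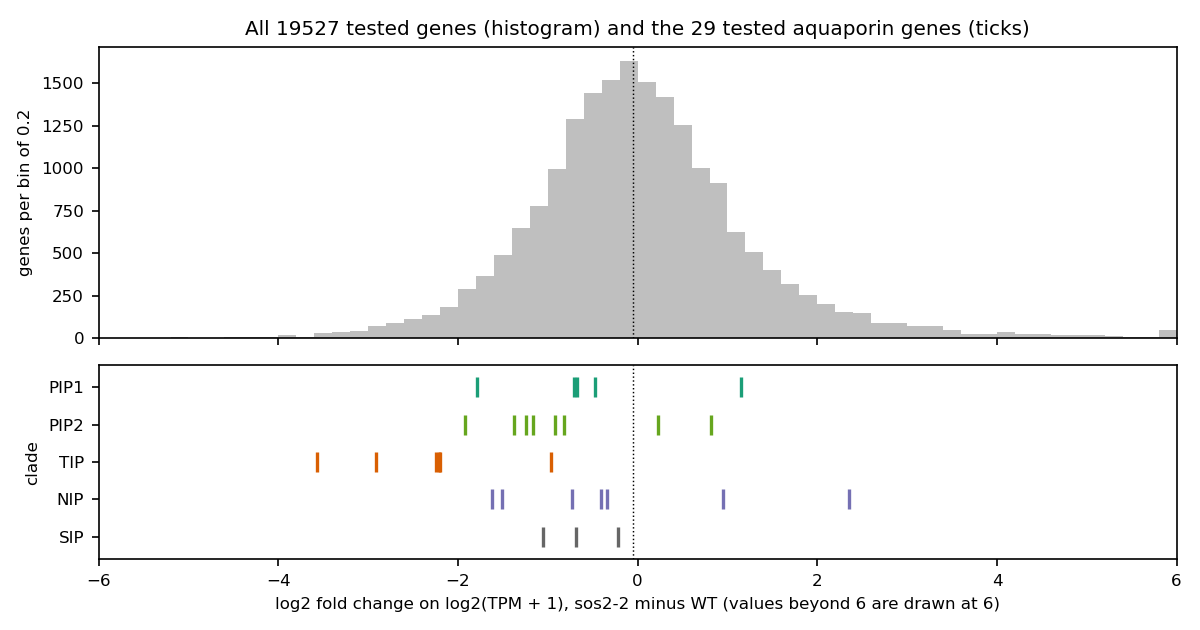
Histogram of the log2 fold changes of all 19527 tested genes (upper panel, genes per bin of 0.2) and the values of the 29 tested aquaporins by clade (lower panel, a tick per gene). The dotted line is the median of all genes, -0.05, and 5 of the 29 ticks lie to its right.

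Isoforms were also tested on their own. Of 41 aquaporin isoforms tested, 5 were called higher, 23 lower and 13 not called. Of 27461 isoforms tested in all, 50.8% were called, 25.1% higher and 25.7% lower. Of the 16 loci with more than 1 isoform, 10 had at least 2 that were tested. In PIP2;1 a single isoform held 99.2% in sos2-2 and 99.1% in WT. PIP1;4 was split between 2 isoforms, and both fell. The first stood at 36.55, 32.1 and 21.65 TPM in sos2-2, against 39.0, 60.0 and 49.2 TPM in WT, and the second at 29.8, 25.3 and 27.7 TPM in sos2-2, against 33.8, 46.6 and 51.4 TPM in WT. In NIP3;1 the main isoform was the third, with a coding part of 426 bases against 972 bases for the first. It held 79.0% of the locus in sos2-2 and 71.9% in WT, at 115.5, 95.7 and 85.6 TPM in sos2-2, against 46.8, 49.3 and 42.3 TPM in WT (log2 fold change 1.08, SE 0.14, adjusted p = 0.000802). The third isoform of PIP1;2 was given as 36.6, 1.02e-05 and 48.4 TPM in sos2-2, against at most 0.000108 TPM in any WT sample, so it had a sizeable level in 2 of the 3 mutant samples, and it was not called (adjusted p = 0.0609). In NIP2;1 the first isoform held 35.2% of the mean level in sos2-2 and 75.8% in WT, where WT replicate 1 again stood low, at 0.801 TPM against 15.2 and 17.3 TPM.

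Genes that act on aquaporin proteins were counted together with the boron exporters. Of 14 listed regulators and boron transporters 13 were tested, of which 4 were called higher, 6 lower and 3 not called, with a median log2 fold change of -0.66. The called members were 76.9% of those tested, against 65.4% of all tested genes, and those called lower 46.2%, against 34.1%, so the list lies near the background. One of the 4 called higher is AT3G24715, whose listed name HCR1 is not in the annotation used. SYP121, a syntaxin that delivers PIP2 proteins to the plasma membrane, stood at 174, 139.6 and 185 TPM in sos2-2, against 54.5, 60.9 and 58.2 TPM in WT (log2 fold change 1.50, SE 0.14, adjusted p = 8.68e-05). VAMP721, a vesicle protein that pairs with SYP121, stood at 74.7, 78.1 and 70.2 TPM in sos2-2, against 134, 151 and 149 TPM in WT (log2 fold change -0.95, SE 0.11, adjusted p = 0.000244). The 2 partners of the same delivery step went opposite ways, each without overlap. SIRK1, a receptor kinase that acts on PIP2 channels, rose (23.0, 18.4 and 19.7 TPM in sos2-2, against 9.75, 8.65 and 11.2 TPM in WT). RMA1, a ubiquitin ligase of the family known to act on PIP2 proteins, rose as well (48.3, 82.9 and 87.2 TPM in sos2-2, against 32.4, 33.0 and 32.7 TPM in WT). Its relatives went otherwise, RMA2 being called lower (log2 fold change -0.66, adjusted p = 0.0432) and RMA3 not called (log2 fold change 0.17, adjusted p = 0.358). OST1, a kinase of abscisic acid signalling that phosphorylates a PIP2 protein, fell (6.175, 6.47 and 5.30 TPM in sos2-2, against 9.24, 17.5 and 14.6 TPM in WT). SYP121 and VAMP721 were named because they had the smallest p of the list, so they too were picked on their values. The other genes of this list were chosen after their values were seen.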

How the data were processed

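RNA from root tips on 100 mM NaCl was measured in 3 sos2-2 and 3 WT samples, grouped by the titles and genotype labels. The authors deposited a table of TPM per transcript isoform, and the unit was read from the values, which sum to 1000000 in each sample. Per the submitters' processing notes, the tools were kallisto 0.46.2 and sleuth 0.30.0 and the genome build was TAIR10, without a stated role for any of them. Not given in the sources used here are the strand setting, filters and release of the annotation. An exact 0 in such a table can be a failed estimate, so those genes are described as listed at 0.

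Isoforms were summed to 27655 genes. limma 3.58.1 in R 4.3.3 (mean-variance trend, robust) was fitted on log2(TPM + 1), with genotype only, for 19527 genes averaging at least 1 TPM, and p-values were adjusted over all of them by the Benjamini-Hochberg method. Genes under 0.05 were called. Fold values are ratios of mean TPM, and values after ± are SDs. The same fit was run on 27461 isoforms, and the scripts were tested on simulated data. Names, positions and sequences came from the RefSeq annotation of TAIR10.1, by locus, of which 27445 of the genes had an entry. The annotation gave the member's name for 34 of the 35 loci (TIP1;2 is entered as TIP2), and for 13 of the 14 listed regulators, the exception being AT3G24715. Shared 31-base words were counted on annotated transcripts, both strands. Motifs were counted in the 250 bases before each annotated gene start.

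All 35 members are accounted for. Of each other list, the 2 members with the smallest p were named where at least 3 were called, otherwise 1. Further members were named after their values were seen, mainly from the list of regulators and boron transporters. The members and lists were chosen with earlier results of these data known. Alternatives changed the filter, pseudocount, scaling, sample weights and replicate block, or left out each sample. The number of data columns of other samples was 0.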

Additional observations from a re-analysis of the deposited data

How the results depend on the processing

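Each member's difference was recomputed in up to 15 other settings, giving 427 values, of which 399 kept their direction and side of the threshold, 16 lost the call, 10 gained it and 2 changed direction. Both were of NIP2;1, which was not called in either, at 0.11 without WT replicate 2 (adjusted p = 0.91) and 0.14 without WT replicate 3 (adjusted p = 0.882), while it was called at -1.26 without WT replicate 1. With each sample left out in turn, 19 to 26 aquaporins were called (15 to 22 lower, 4 higher each time) and 10658 to 12898 genes. With no filter 25 members were called (5 higher, 20 lower, TIP5;1 and TIP1;3 gained, TIP1;1 and NIP1;2 lost), with a mean of at least 5 TPM 20 (4 and 16), with pseudocounts of 0.1 or 5 25 (4 and 21), with TMM-type factors 24 (4 and 20) and with quantile normalization 27 (5 and 22). Removing AT2G01021 from the total, a choice made after seeing the data, gave 26 (4 and 22). Sample weights, whose estimation stopped short of its convergence tolerance, gave 29 members and 17681 genes. No scaling moved the median of all genes by more than 0.1 on the log2 scale.

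Samples with the same replicate number are not stated to be paired, and their deviations correlated at r = 0.177, 0.0505 and 0.0575. With the replicate number as a block, 26 members (4 higher, 22 lower) and 12547 genes were called, PIP1;5 being gained (adjusted p = 0.0214).

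The pseudocount decides the size of change of the low members. With 0.1 and with 5 in place of 1, the log2 fold change was -4.06 and -0.52 for NIP4;2 and -2.77 and -0.91 for PIP2;6. NIP4;2 had no value without WT replicate 2 or 3, or with a mean of at least 5 TPM, where it missed the filter. With a sample left out, the ratio of sos2-2 to WT ranged over 0.651 to 0.782 for PIP1, 0.509 to 0.631 for PIP2, 0.297 to 0.443 for TIP, 2.46 to 2.91 for NIP and 0.541 to 0.582 for SIP. Depth is unknown, so what it limits cannot be stated. Protein features were planned and not run, since no protein table was given.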
